A study of Rattus norvegicus with 15 samples.

Results

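The genes described here carry lipoproteins through the liver. They are the assembly gene Mttp, the lipid exporter Abca1, the remodelling genes Lcat, Pltp, Lipc and Lpl, and the receptor genes Scarb1, Lrp1 and Sorl1. They are 9 of the 14217 genes that the array annotation names alone on at least 1 probe set. Every probe set that names only 1 of the 9 was taken, whatever its values, which gave 21 of the 31099 probe sets in the table. Of these, 8 belong to Sorl1 and 13 to the other 8 genes. After the filter on low values, 18 of the 21 were tested, among them 5 of Sorl1 and all 13 of the others. The genes were chosen with earlier results of these data known.

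Liver total RNA was measured on 15 Affymetrix rat expression arrays from male Sprague-Dawley rats, 5 per diet, which the array titles call biological replicates. The diets held 2 g/kg genistein, 2 g/kg daidzein or no isoflavone (control), and were eaten for 14 days after 5 days of adaptation by rats that arrived at 4 weeks of age. The basal mixture, shared with the control diet, contained casein at 200 g/kg and palm oil at 100 g/kg. Both compounds are isoflavones of soy and differ by a hydroxyl group, which genistein carries and daidzein lacks. The series is titled as a comparison of both compounds in liver lipid metabolism. Each array is named by its diet and the replicate number in its title.

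The liver loads triglyceride onto apolipoprotein B in the endoplasmic reticulum to make very-low-density lipoprotein, and builds high-density lipoprotein by exporting cholesterol and phospholipid onto apolipoprotein A1. In plasma, lipases and transfer proteins reshape these particles, and hepatic receptors take up their remnants or their cholesterol. Sorl1, also called sorLA or LR11, joins the repeats of the low-density lipoprotein receptor family to a VPS10 domain. It sorts cargo between the Golgi and endosomes and is known to bind apolipoprotein E and lipoprotein lipase.

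Levels below are in log2 units rebuilt from the deposited standardized scores. Their zero is arbitrary and stands on average for an intensity of about 39.6 steps on the rebuilt scale. Levels are therefore compared between diets within a probe set and never between probe sets. A change is the difference of 2 diet means with the standard error (SE) of limma's fit over 18625 probe sets. It is called where the Benjamini-Hochberg adjusted p is under 0.05. Correlations between arrays across those probe sets lay between 0.931 and 0.969, and each array's mean correlation with the others between 0.950 and 0.963. The numbers in the descriptions differ from those in the titles for 9 arrays. Precision is limited by the small number of arrays.

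Sorl1 was called lower in the livers of genistein-fed rats on 1 of its 5 tested probe sets, and no other of the 9 genes had a called change. In genistein against control, 1 of the 18 probe sets tested was called, beside 0.322% of all probe sets called in either direction and 0.172% called lower. An unadjusted p under 0.05 was reached by 7 of the 18, of which 4 were Sorl1 probe sets, against 11.0% of all probe sets. Outside Sorl1 it was reached by 3 of 13. Probe sets of the same gene are repeat readings, so these counts are not counts of separate genes. In daidzein against control 0 of 18 were called by limma, beside 0.0161% of all, and 1 of 18 had an unadjusted p under 0.05, beside 8.25% of all. Exact permutation tests gave 2 of 18 at an unadjusted p under 0.05 in that comparison. In genistein against daidzein 0 of 18 were called by limma, beside 0.113% of all, and 7 of 18 had an unadjusted p under 0.05, beside 9.37% of all. The comparisons share arrays, so their values are given side by side and not as separate evidence.

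The upstream sequence of Sorl1 is shown because it is the gene with the called probe set. RefSeq (GRCr8) places the 250 bases before its start at chr8:51401248-51401497 on the minus strand, here 5′ to 3′ with a CACGTG E-box in capitals.
Sorl1: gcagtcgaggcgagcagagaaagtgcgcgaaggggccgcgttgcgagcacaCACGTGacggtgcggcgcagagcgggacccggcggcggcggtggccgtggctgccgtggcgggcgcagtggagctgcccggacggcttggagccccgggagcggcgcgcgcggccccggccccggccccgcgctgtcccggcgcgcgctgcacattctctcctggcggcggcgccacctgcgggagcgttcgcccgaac
Of these bases 78.4% are G or C, a share that 1.68% of the 33469 promoters in the table reach or exceed and whose median over all of them is 51.2%. The E-box begins 199 bases before the start and occurs on either strand in 5.59% of all promoters of this length. The nuclear receptor motif AGGTCA, held by 14.1% of promoters, the STAT motif TTCNNNGAA (7.67%), the GC box GGGCGG (30.5%) and the TATA box TATAAA (12.9%) were not found in this window on either strand. Promoters were matched for 6 of the 9 genes. The start in the table need not be the one used in liver, and a match of letters is a description of the window.

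The Sorl1 probe set 1393933_at (Entrez gene 300652) gave levels of -0.99, -0.47, -0.59, 0.02 and -0.38 in genistein arrays 1 to 5. Daidzein arrays gave 0.55, 0.26, 0.11, 0.29 and 0.29, and control arrays 0.60, 0.44, 0.57, 0.75 and 0.44. All 5 genistein livers lay below every daidzein and every control liver, and daidzein and control livers overlapped. Levels averaged -0.48 ± 0.37 with genistein, 0.30 ± 0.16 with daidzein and 0.56 ± 0.13 with control (SD, n = 5 each). Sorl1 was thus 2.06-fold lower on this probe set in genistein than in control livers (log2 change -1.04, SE 0.15, 95% confidence interval -1.36 to -0.73, limma adjusted p = 0.0102). A two-sided exact permutation test gave p = 0.0079, the smallest that 5 arrays against 5 allow. Groups that did not overlap in genistein against control were seen in 1 of the 18 probe sets, beside 2.57% of all. In daidzein against control this held for 0 of 18, beside 1.88% of all. The call ended in a fit of the 10 genistein and control arrays alone (adjusted p = 0.0669), where 0 of all probe sets were called, beside 60 in the main fit. It held in each of the 15 fits without 1 array (adjusted p 0.000781 to 0.0446). The filter took the mean over all 15 arrays, 0.13 for this probe set, while its genistein mean lay below the filter level of -0.30. Genistein arrays 1, 2, 3 and 5 lay below that level too, so the fold rests on dim genistein signals. With 16 added to the intensities the change was -0.74 (limma adjusted p = 0.00622).

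Daidzein livers had a mean on 1393933_at between the other diets. The change against control was -0.26 (95% confidence interval -0.57 to 0.05, limma adjusted p = 0.669), and all 5 daidzein arrays lay below the control mean. The difference between the compounds at the same dose and time was -0.78 for genistein minus daidzein (95% confidence interval -1.10 to -0.47), with a limma adjusted p of 0.0569. It did not pass the threshold, although the arrays did not overlap. Of the 15 fits without 1 array it passed in 1, that without genistein 4 (adjusted p = 0.00596), the genistein array nearest the other diets. In that fit the calls over all probe sets rose from 21 to 136. Genistein against daidzein is the only pair of compounds in the study, and its p-values are adjusted over all probe sets tested. Of the variance of 1393933_at over the 15 arrays, 80.9% lay between diets, more than in 99.9% of probe sets tested, whose median was 14.5%. This share restates the diet differences of a probe set singled out by its call. The other tested Sorl1 probe sets had 62.8% (1377457_a_at), 52.0% (1394786_at), 51.1% (1390710_x_at) and 17.5% (1377458_at).

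On the probe set 1377457_a_at, the genistein arrays 1 to 5 gave -0.38, 0.67, 0.37, 1.08 and 0.37. Daidzein arrays gave 1.21, 0.89, 0.93, 1.33 and 1.23, and control arrays 1.52, 1.54, 1.54, 1.47 and 0.99. Genistein 4 overlapped with the daidzein arrays and with control 5, and the other 4 genistein arrays lay below all 10 of the other diets. The change was -0.99 ± 0.21 (SE) for genistein against control (limma adjusted p = 0.0680). It was -0.29 for daidzein against control (adjusted p = 0.741) and -0.70 for genistein against daidzein (adjusted p = 0.241), and none of the 3 was called. The genistein change against control did pass in 1 of the 15 fits without 1 array, that without genistein 4 (adjusted p = 0.0107). It also passed in 4 other alternative fits (adjusted p 0.0325 to 0.0468). Without genistein 4, calls over all probe sets in that comparison rose from 60 to 203.

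The probe set 1394786_at gave -0.97, 0.28, 0.01, 0.72 and -0.31 with genistein. It gave 0.75, 0.51, 0.32, 0.71 and 0.50 with daidzein, and 1.20, 0.81, 0.75, 0.90 and 0.58 with control. Again genistein 4 was the only genistein array inside the range of another diet. The changes were -0.90 ± 0.24 (SE) for genistein against control (limma adjusted p = 0.138), -0.29 for daidzein against control (0.776) and -0.61 for genistein against daidzein (0.417). Without genistein 4 the first was -1.10 and passed (adjusted p = 0.0204), the only 1 of 15 fits without 1 array where it did. Without genistein 1 the last was -0.38.

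The 2 remaining Sorl1 probe sets above the filter moved less. On 1390710_x_at, which had the highest mean of the gene, genistein arrays gave 1.35, 1.24, 1.13, 1.63 and 1.13. Daidzein arrays gave 1.57, 1.65, 1.59, 1.61 and 1.45, and control arrays 1.85, 1.71, 1.75, 1.50 and 1.42. All but genistein 4 lay below both other diets, and the change was -0.35 for genistein against control (limma adjusted p = 0.206), -0.08 for daidzein against control and -0.28 for genistein against daidzein. Without genistein 4 the first was -0.43 and passed (adjusted p = 0.0468), the only 1 of 15 fits without 1 array where it did. On 1377458_at, genistein arrays gave 1.17, 1.37, 1.21, 1.81 and 1.21, daidzein arrays 1.53, 1.50, 1.35, 1.30 and 1.50, and control arrays 1.55, 1.51, 1.49, 1.49 and 1.55. Here genistein 4 was the highest of all 15 arrays and the other 4 genistein arrays lay below all 5 controls, with a change of -0.17 for genistein against control (limma adjusted p = 0.631). Without genistein 4 that change was -0.28 (adjusted p = 0.0953). The x in 1390710_x_at marks a probe set whose probes may bind other transcripts as well. The annotation ties 1390710_x_at, 1377458_at and 1377457_a_at to the same sequence record, so they are not independent readings of the gene.

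**Figure D1:**
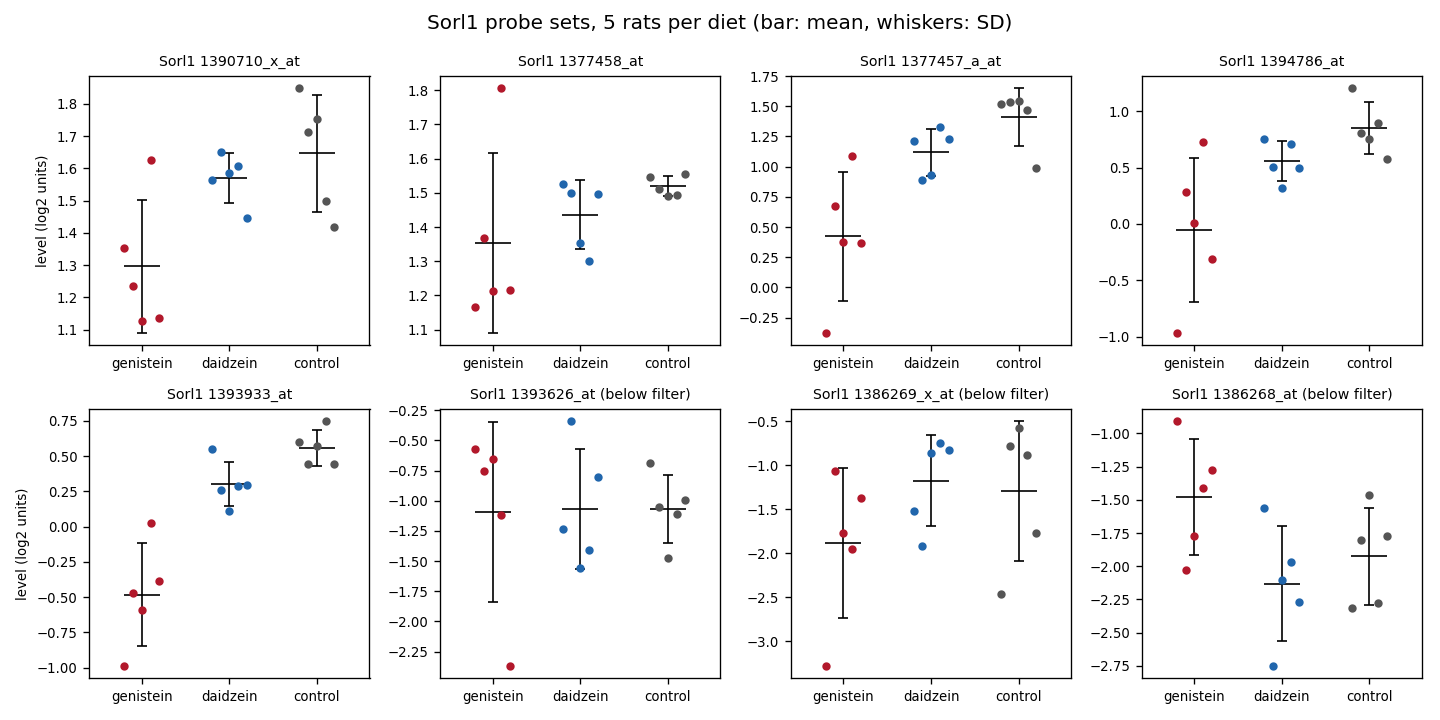
Level (log2 units, arbitrary zero) of each of the 8 Sorl1 probe sets in 5 genistein, 5 daidzein and 5 control livers; points are arrays, bars means and whiskers SD, and the vertical scale differs between panels. On 1393933_at all genistein points lie below the others, and in each of the 5 probe sets above the filter genistein 4 is the highest genistein point.

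The other 3 Sorl1 probe sets had mean levels below the filter and were not tested for calls. On 1393626_at the genistein arrays gave -0.57, -0.75, -0.66, -1.12 and -2.37, the daidzein arrays -1.23, -0.34, -1.56, -1.41 and -0.81, and the control arrays -0.69, -1.05, -1.48, -1.11 and -0.997. The 3 diets overlapped widely. On 1386269_x_at genistein gave -3.28, -1.06, -1.77, -1.95 and -1.37, daidzein -1.52, -1.92, -0.86, -0.75 and -0.83, and control -2.46, -0.78, -0.57, -0.88 and -1.77. Its difference was -0.59 for genistein against control and -0.71 for genistein against daidzein, with overlap in both. On 1386268_at genistein gave -0.91, -2.03, -1.77, -1.41 and -1.27, daidzein -1.56, -2.75, -2.10, -1.97 and -2.27, and control -2.32, -1.80, -1.46, -2.28 and -1.77. There the difference ran the other way, 0.45 for genistein against control and 0.65 for genistein against daidzein, in dim signals.

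The 3 probe sets with the largest shifts followed each other across the arrays. Pearson r over 15 arrays was 0.93 between 1393933_at and 1377457_a_at, 0.90 between 1393933_at and 1394786_at, and 0.96 between 1377457_a_at and 1394786_at. Within diets, as deviations from each diet's mean, the same pairs had r of 0.83, 0.84 and 0.91. These probe sets come from the same RNA and arrays, so the values describe how alike the readings are. Against 1393933_at, the below-filter 1393626_at had r of -0.10, 1386269_x_at 0.47 and 1386268_at -0.50.

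By the likeness rule, which uses the probe set with the highest mean, 1390710_x_at, the closest of 10649 genes were Mapkapk2 (r = 0.909), Xkr8 (0.896), Zmiz2 (0.880), Crem (0.872) and Cisd3 (0.865). Mapkapk2 is a kinase of the p38 stress pathway, Xkr8 a phospholipid scramblase and Crem a transcription factor of cAMP signalling. Their r within diets lay between 0.753 and 0.867 over the same 15 arrays. Mapkapk2 averaged 2.46 ± 0.21 with genistein, 2.69 ± 0.13 with daidzein and 2.85 ± 0.24 with control (SD, n = 5), and none of the 5 had a called change in any of the 3 comparisons.

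For the called probe set, 1393933_at, a choice made after its values were seen, the closest genes were Hsd3b5 (r = 0.920), Slc22a8 (0.918), Ust5r (0.916), Cyp3a18 (0.906) and Cyp2c11 (0.906). Hsd3b5 is a ketosteroid-reducing member of the 3β-hydroxysteroid dehydrogenase family, and Cyp2c11 the main cytochrome P450 of the male rat liver. The most opposite genes were Sult2a6, a hydroxysteroid sulfotransferase (r = -0.933), Ppp2r1b, a phosphatase subunit (-0.921), and Psmb10, an immunoproteasome subunit (-0.919). Hsd3b5 averaged 2.32 ± 2.05 with genistein, 5.60 ± 0.50 with daidzein and 5.95 ± 0.37 with control (SD, n = 5). Sult2a6 averaged 5.79 ± 0.78 with genistein, 3.21 ± 0.64 with daidzein and 2.04 ± 0.96 with control. In genistein against control, Hsd3b5, Slc22a8, Ust5r, Sult2a6, Ppp2r1b and Psmb10 were themselves called (limma adjusted p 0.00891 to 0.0482). Cyp3a18 and Cyp2c11 were not (limma adjusted p = 0.0909 and 0.0757). Within diets the r fell in size, to 0.75 for Hsd3b5 and -0.65 for Sult2a6, so part of the likeness over 15 arrays is the difference between diet means.

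**Figure D2:**
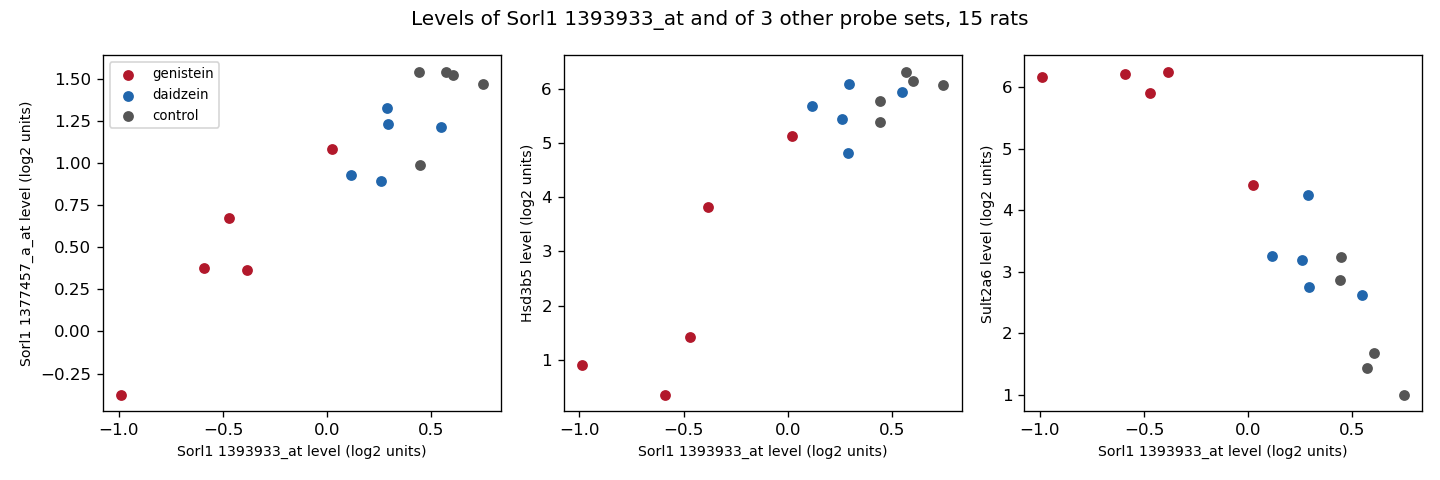
Level of Sorl1 1393933_at (horizontal axis, log2 units) against that of Sorl1 1377457_a_at, Hsd3b5 and Sult2a6 (vertical axes, log2 units) in 15 livers coloured by diet. Genistein livers lie at the low end of Sorl1, and the points run upward for 1377457_a_at and Hsd3b5 and downward for Sult2a6.

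In whole-liver RNA, fewer cells of a type and less RNA per cell cannot be told apart. The mean level of 6 hepatocyte markers was 7.72 with genistein (range 7.64 to 7.86), 7.80 with daidzein and 7.87 with control (7.78 to 8.00). The difference of -0.15 for genistein against control had a two-sided exact permutation p of 0.0317, or 0.167 adjusted over 21 such marker comparisons. This difference rested on 1 gene, Tat (tyrosine aminotransferase), at -1.02 (limma adjusted p = 0.222). Of the other 5, Serpina1 had -0.09, Apoa1, Ttr and Cps1 had 0.04 to 0.13, and Alb stood at the same level of 9.29 in all diets after quantile normalization, so the median of the 6 markers was 0.02. All 6 passed the filter, and none was called in any comparison. The 2 lymphocyte markers measured, of 6 listed, differed by -0.58 on average in genistein against control (exact permutation p = 0.0556, 0.233 adjusted). Of these, Cd3e had -1.19 and Cd8a 0.02. For liver endothelium 5 of 6 listed genes were measured, for cholangiocytes 2 of 5 and for adipocytes only 1 of 6, Cidec. Exact permutation p for these in genistein against control was 0.952, 0.897 and 0.127. In the same comparison it was 0.690 for Kupffer cells and macrophages and 0.857 for stellate cells and fibroblasts. The part of these markers in the Sorl1 result was not tested.

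Lrp1, the large endocytic receptor for remnants that carry apolipoprotein E (Entrez gene 299858), was read by 2 probe sets. On 1388416_at the genistein arrays gave 3.21, 3.25, 3.38, 3.31 and 3.29, the daidzein arrays 3.35, 3.23, 3.42, 3.31 and 3.37, and the control arrays 3.72, 3.21, 3.54, 3.72 and 3.56. Control 2 was level with the lowest isoflavone array and the other 4 controls lay above all 10 of them. The change was -0.26 for genistein against control (95% confidence interval -0.46 to -0.07, limma adjusted p = 0.283) and -0.22 for daidzein against control (-0.41 to -0.02, adjusted p = 0.566), and neither was called. Genistein minus daidzein was -0.05, with an interval from -0.24 to 0.15. On 1396767_at the differences were 0.12, 0.04 and 0.09 in the same order of comparisons, so the probe sets differ in sign against control.

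Scarb1, the receptor that takes cholesteryl ester from high-density lipoprotein (Entrez gene 25073), showed no called change on either probe set. On 1386956_at it averaged 2.89 ± 0.27 with genistein, 3.03 ± 0.26 with daidzein and 2.94 ± 0.15 with control (SD, n = 5). On 1367855_at it averaged 2.81 ± 0.23 with genistein, 2.90 ± 0.29 with daidzein and 2.76 ± 0.10 with control. The probe sets moved together from array to array (r = 0.90 over 15 arrays and 0.90 within diets). The interval for genistein against control on 1386956_at ran from -0.35 to 0.26, which bounds the changes these arrays leave possible.

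Mttp encodes the large subunit of the microsomal triglyceride transfer protein, which lipidates apolipoprotein B (Entrez gene 310900). Its probe set 1395041_at gave 5.38, 5.26, 5.39, 5.06 and 5.30 with genistein, 4.93, 4.98, 4.99, 5.15 and 4.95 with daidzein, and 4.86, 5.11, 5.14, 5.11 and 5.03 with control. Genistein 4 lay inside the range of both other diets, and the remaining 4 genistein livers lay above all daidzein and control livers. Genistein exceeded control by 0.23 (95% confidence interval 0.05 to 0.41, limma adjusted p = 0.305) and daidzein by 0.28 (0.11 to 0.46, adjusted p = 0.223). Both had unadjusted exact permutation p-values under 0.05 (0.0317 and 0.0159), and neither was called after adjustment over all probe sets. Daidzein minus control was -0.05, with an interval from -0.23 to 0.12. Mttp varied little within diets, with a pooled SD of 0.114, smaller than in all but 11.1% of probe sets tested.

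Abca1 exports cholesterol and phospholipid to apolipoprotein A1, the first step of high-density lipoprotein formation (Entrez gene 313210). Its probe set 1382431_at had the widest spread within diets of the 18 tested. RefSeq (GRCr8) places the 250 bases before its start at chr5:72596474-72596723 on the minus strand. They are shown because of the spread of that probe set between rats of the same diet. Capitals mark the GC box (GGGCGG), the E-box (CACGTG) and the TATA box (TATAAA) in that order.
Abca1: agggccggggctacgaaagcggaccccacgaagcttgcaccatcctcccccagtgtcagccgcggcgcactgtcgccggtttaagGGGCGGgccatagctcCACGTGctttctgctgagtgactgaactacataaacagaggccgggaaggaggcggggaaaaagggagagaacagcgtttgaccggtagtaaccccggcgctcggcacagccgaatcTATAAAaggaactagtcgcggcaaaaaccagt
These motifs begin 165, 149 and 32 bases before the start, and 59.6% of the bases are G or C. The repeats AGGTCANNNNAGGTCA and AGGTCANAGGTCA, which occur in 0.00299% and 0.0508% of promoters, were searched on both strands and not found in this window. Only exact copies were searched, and nearly all promoters lack them. Their absence therefore does not show that the window lacks looser forms of these repeats, which were not searched.

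On the Abca1 probe set 1382431_at, genistein arrays gave 4.40, 4.39, 3.73, 3.69 and 4.16. Daidzein arrays gave 3.40, 1.89, 3.41, 3.57 and 3.40, and control arrays 4.11, 1.99, 2.21, 3.71 and 3.81. All genistein arrays lay above all daidzein arrays, while daidzein 2, control 2 and control 3 stood more than 1 log2 unit below the rest. The pooled SD within diets was 0.725, larger than in 97.0% of probe sets tested, whose median was 0.220. Genistein minus daidzein was 0.94 (95% confidence interval 0.04 to 1.83, limma adjusted p = 0.508) and genistein minus control 0.91 (0.01 to 1.80, adjusted p = 0.453), and neither was called. Daidzein minus control was -0.03 and ranged from -0.33 to 0.28 when 1 array at a time was left out.

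The probe set 1394490_at followed the same arrays (r = 0.87 over 15 arrays and 0.87 within diets). It gave 2.17, 2.37, 1.90, 1.83 and 2.51 with genistein, 1.63, 0.86, 1.73, 1.79 and 1.65 with daidzein, and 2.54, 1.29, 1.55, 2.20 and 1.70 with control. Again all genistein arrays lay above all daidzein arrays, with a difference of 0.62 (95% confidence interval 0.12 to 1.13, limma adjusted p = 0.408). These are 2 of the 3 probe sets whose genistein and daidzein arrays did not overlap, the third being Sorl1 1393933_at, beside 2.03% of all probe sets. Genistein minus control was 0.30 on this probe set (limma adjusted p = 0.713), with 0.16 without control 2 and 0.47 without control 1.

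The other Abca1 probe sets did not share these movements. On 1383355_at genistein arrays lay between 2.89 and 3.33, daidzein arrays between 2.85 and 3.18 and control arrays between 3.06 and 3.35, and r with 1382431_at was -0.52. On 1384381_at genistein arrays lay between 0.19 and 1.05, daidzein arrays between 0.48 and 0.82 and control arrays between 0.15 and 0.83, and r with 1382431_at was -0.09. The changes of this pair lay between -0.15 and 0.10, none called. The 3 arrays low on 1382431_at had β-actin 3′ minus 5′ differences of 0.88 (daidzein 2), 1.10 (control 2) and 1.08 (control 3), inside the range of 0.88 to 1.18 over all arrays, of which daidzein 2 was the lowest. The difference compares signals from both ends of a transcript as a sign of RNA quality, and its part in these levels was not tested. The genes closest to 1382431_at over 15 arrays, chosen after its values were seen, were Tnrc6b (r = 0.829) and, opposite, G6pc3 (r = -0.877).

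**Figure D3:**
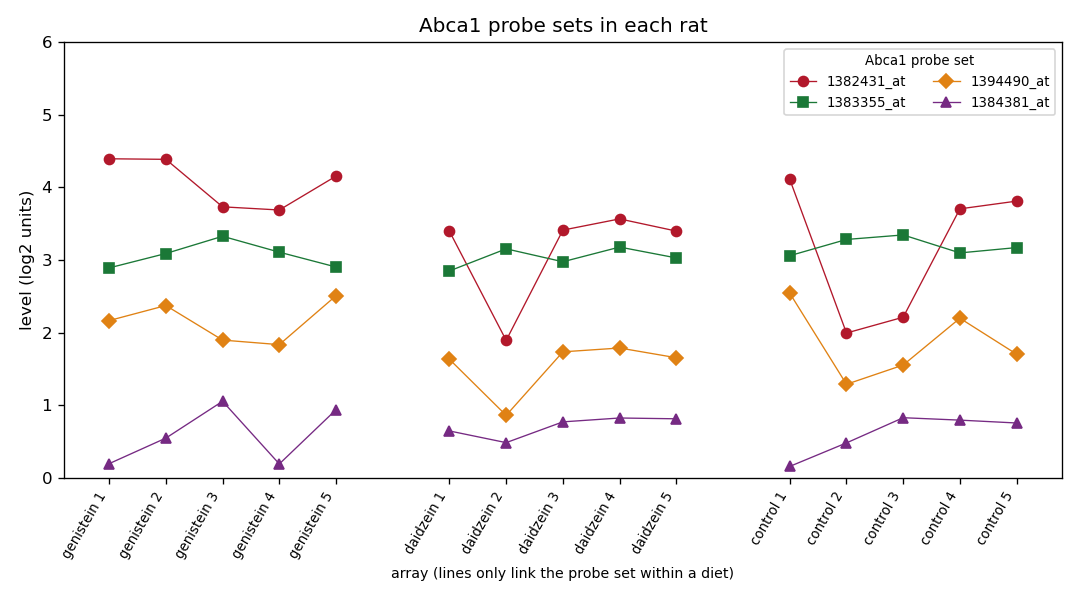
Level (log2 units) of the 4 Abca1 probe sets in each of the 15 livers, grouped as genistein, daidzein and control. Points on 1382431_at and 1394490_at drop together in daidzein 2, control 2 and control 3, while 1383355_at and 1384381_at do not follow.

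The enzymes and the transfer protein of particle remodelling showed no called change. On 1369701_at, Lipc (Entrez gene 24538), the hepatic lipase of remnants and high-density lipoprotein, averaged 6.80 ± 0.09 with genistein, 6.73 ± 0.19 with daidzein and 6.75 ± 0.19 with control (SD, n = 5). On 1367887_at, Lcat (Entrez gene 24530), which esterifies the cholesterol of high-density lipoprotein, averaged 7.07 ± 0.13 with genistein, 7.00 ± 0.14 with daidzein and 7.11 ± 0.08 with control. The 3 diets overlapped for both genes, and the intervals for genistein against control were -0.17 to 0.28 for Lipc and -0.22 to 0.14 for Lcat.

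On 1391435_at, Pltp (Entrez gene 296371), which moves phospholipid between particles, averaged 1.80 ± 0.31 with genistein, 1.77 ± 0.30 with daidzein and 1.84 ± 0.46 with control (SD, n = 5). Its interval for genistein against control was wider, -0.49 to 0.42. On 1386965_at, Lpl (Entrez gene 24539), the lipoprotein lipase, gave 1.28, 1.00, 1.18, 1.18 and 1.48 with genistein, 0.94, 0.77, 0.90, 0.74 and 1.53 with daidzein, and 1.26, 0.98, 1.35, 0.85 and 0.85 with control. Daidzein 5 was the highest of all 15 arrays and the other 4 daidzein arrays lay below all genistein arrays. Genistein minus daidzein was 0.25 for Lpl (95% confidence interval -0.08 to 0.57, limma adjusted p = 0.693), and 0.38 without daidzein 5 (adjusted p = 0.309).

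Markers of stellate cells and fibroblasts were a list of 8 genes, all above the filter. Their mean level was 2.02 with genistein (range 1.96 to 2.09), 1.82 with daidzein (1.75 to 1.89) and 2.02 with control (1.95 to 2.05). The daidzein arrays lay below all others. The exact permutation p was 0.0079 for daidzein against control and for genistein against daidzein, the smallest that 5 arrays against 5 allow, and 0.0833 after Benjamini-Hochberg adjustment over the 21 marker comparisons. Against control, daidzein changes of the 8 ran from -0.76 (Dcn, decorin) to 0.15 (Des, desmin). The 6 Kupffer cell and macrophage markers measured, of 8 listed, averaged 2.45 with genistein, 2.24 with daidzein and 2.50 with control, with an exact p of 0.0238 for daidzein against control (0.167 adjusted). Whether this has a part in the genistein and daidzein values of Lpl, Lrp1 or Abca1 was not tested.

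**Figure D4:**
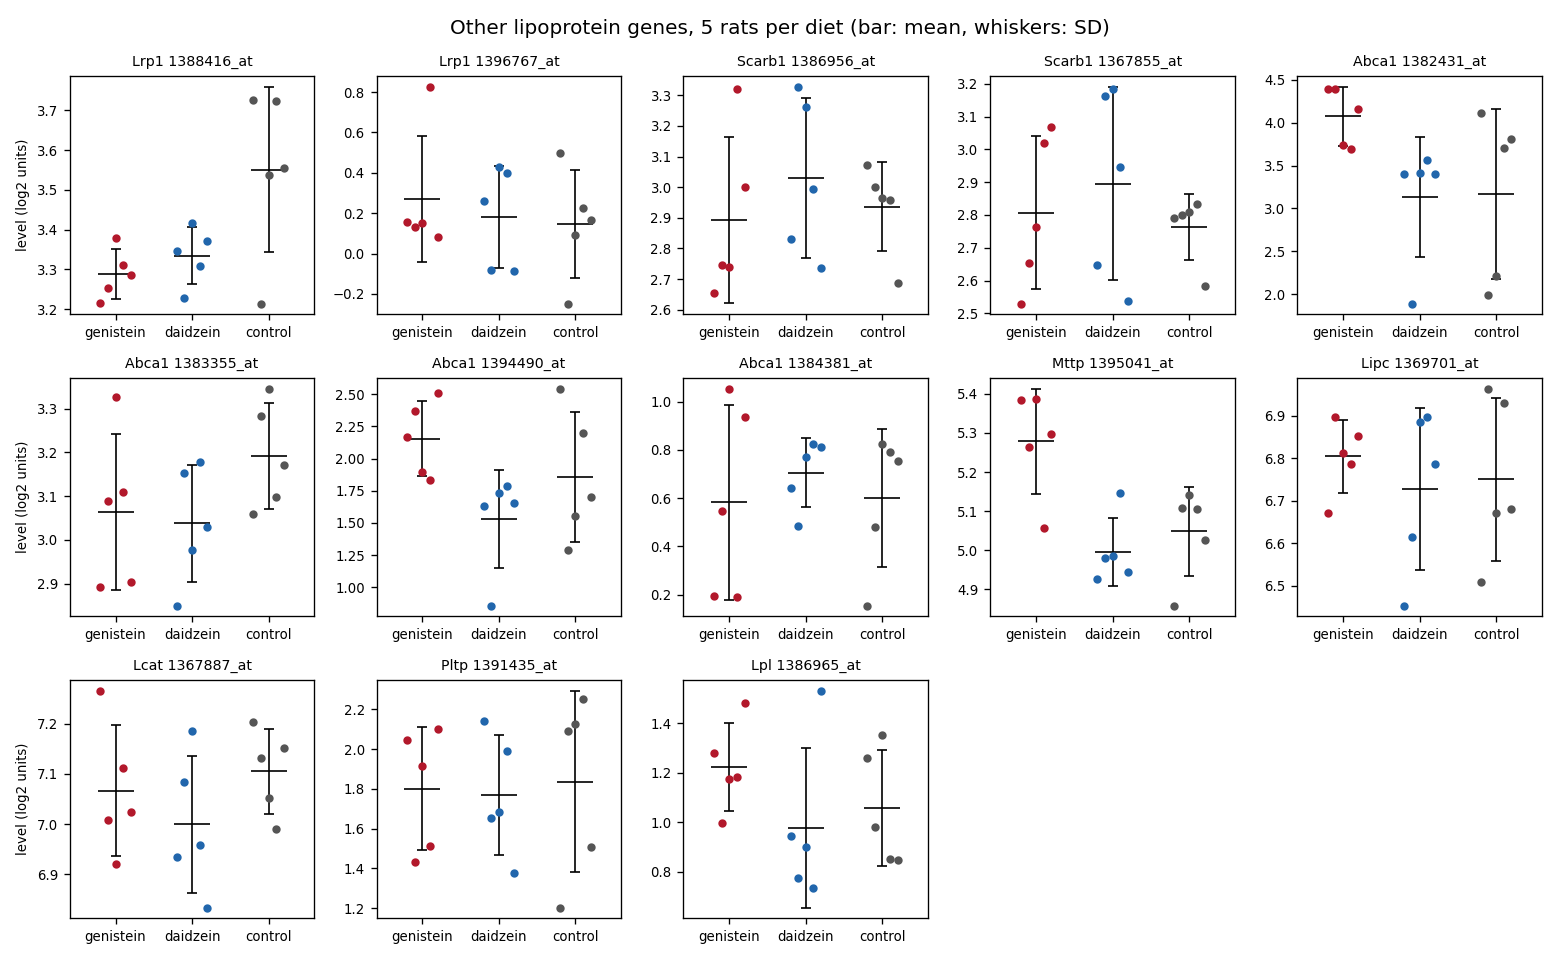
Level (log2 units, arbitrary zero) of the 13 probe sets of the other 8 genes in 5 genistein, 5 daidzein and 5 control livers; points are arrays, bars means and whiskers SD, and the vertical scale differs between panels. Mttp is higher in 4 of 5 genistein livers, and Abca1 1382431_at holds 3 points far below the others.

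**Figure D5:**
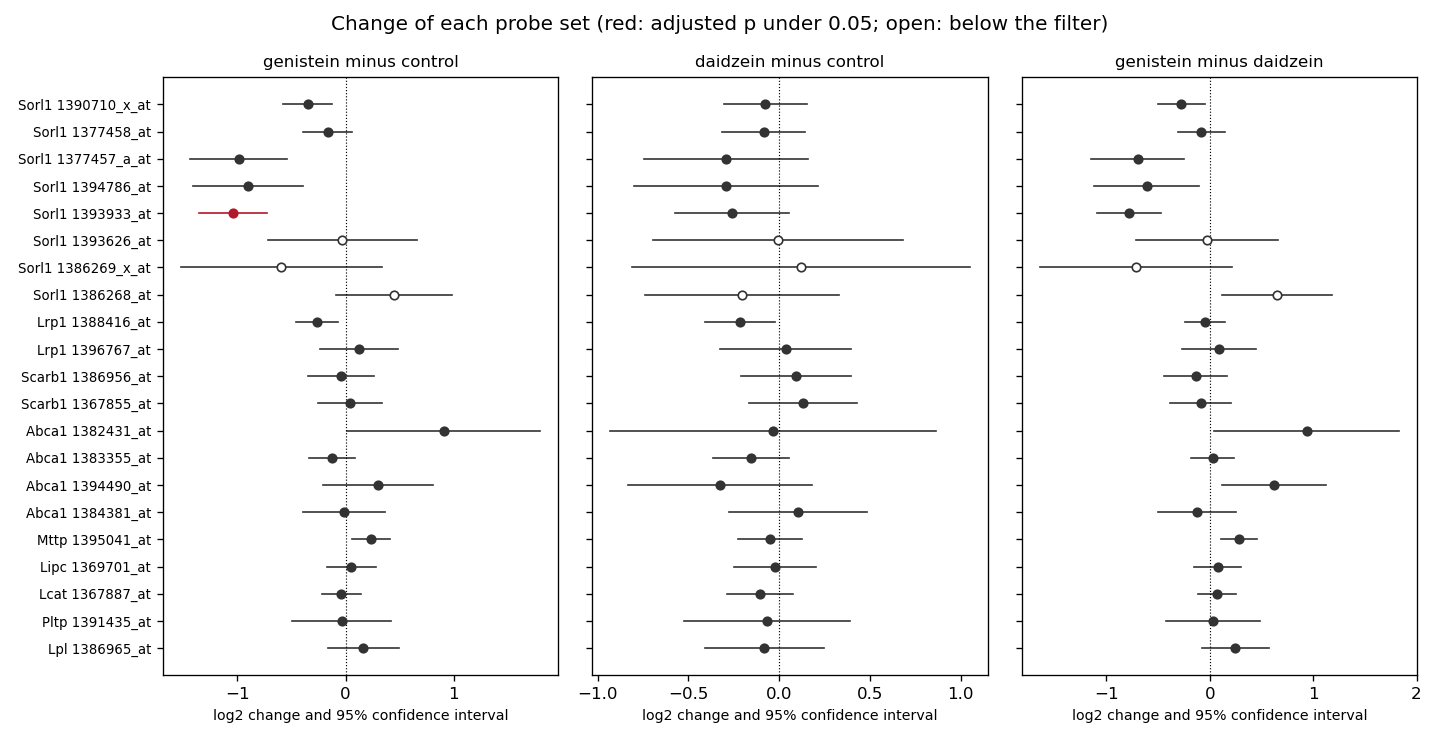
Log2 change with its 95% confidence interval for all 21 probe sets in genistein minus control, daidzein minus control and genistein minus daidzein, each panel with its own horizontal scale. The only red point, with adjusted p under 0.05, is Sorl1 1393933_at in genistein minus control (-1.04), and open points are the 3 Sorl1 probe sets below the filter.

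Over the 18 probe sets tested, the median change was -0.04 for genistein against control, -0.08 for daidzein against control and -0.01 for genistein against daidzein, beside medians of 0.00 over all probe sets tested. The 5 Sorl1 probe sets had medians of -0.90, -0.26 and -0.61 in these comparisons, and the other 13 had 0.04, -0.05 and 0.07. All 5 tested Sorl1 probe sets had a negative value in each comparison. Among the other 13, 7 were positive and 6 negative for genistein against control.

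Genes that work beside these members were taken as 5 lists, also chosen with earlier results known, and each gene was represented by its probe set of highest mean. No gene of any list was called in any of the 3 comparisons by limma, beside 0.335% of 10745 genes called in genistein against control, 0.0279% in daidzein against control and 0.14% in genistein against daidzein. At an unadjusted p under 0.05 in genistein against control, beside 11.6% of all genes, there were 3 of 19 genes of the sorting machinery and VPS10 receptors, 2 of 15 of the low-density lipoprotein receptor family and its endocytosis, 5 of 18 of very-low-density lipoprotein assembly, 1 of 14 of high-density lipoprotein formation and 2 of 13 of the lipase regulators. List medians in that comparison were -0.06, 0.00, 0.01, 0.03 and 0.06 in the same order, beside 0.00 over all genes. An unadjusted limma p under 0.05 in daidzein against control was reached by 2, 0, 1, 0 and 1 genes of the lists in that order. The share over all probe sets there was 8.25%.

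In the sorting list, Snx2, a sorting nexin that works with retromer, averaged 3.07 ± 0.28 with genistein, 2.89 ± 0.11 with daidzein and 2.52 ± 0.12 with control (SD, n = 5). Its genistein change of 0.55 had a limma adjusted p of 0.0729. Gga2, a Golgi clathrin adaptor, had -0.34 (adjusted p = 0.122) and Rab7a, a late endosomal GTPase, -0.38 (adjusted p = 0.146) in the same comparison. Clu, clusterin, a secreted chaperone, had -0.39 for genistein against daidzein (adjusted p = 0.126). Sort1, sortilin, the VPS10 relative of Sorl1, had -0.08 for genistein against control (adjusted p = 0.895).

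In the receptor list, Cd36, a fatty acid and lipoprotein scavenger receptor, averaged 3.24 ± 0.97 with genistein, 1.98 ± 0.39 with daidzein and 1.65 ± 0.33 with control (SD, n = 5). The genistein change of 1.58 had a limma adjusted p of 0.0851. Lrp2, megalin, had -0.37 (adjusted p = 0.305). Among the lipase regulators, Lipa, the lysosomal acid lipase, averaged 5.22 ± 0.20 with genistein, 4.71 ± 0.17 with daidzein and 4.68 ± 0.16 with control, a genistein change of 0.54 (adjusted p = 0.0656), and Pcsk6, a proprotein convertase, had 0.47 (adjusted p = 0.174). Angptl8 had -0.80 for daidzein against control (limma adjusted p = 0.535) and -0.66 for genistein against control (adjusted p = 0.466).

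In the assembly list, Dgat2, which makes triglyceride, averaged 5.86 ± 0.11 with genistein, 5.26 ± 0.30 with daidzein and 5.56 ± 0.19 with control (SD, n = 5). Genistein minus daidzein was 0.60 for Dgat2 (limma adjusted p = 0.0879), and Ces1d, a carboxylesterase, had -0.95 (adjusted p = 0.217). In genistein against control, 4 of the 18 genes of this list were higher and 1 lower at an unadjusted limma p under 0.05. Their changes in that comparison are not given here. Apob, the structural protein of the particle, averaged within 0.04 log2 units in the 3 diets, with -0.04 for genistein against control (adjusted p = 0.938). In the high-density lipoprotein list, Nr1h3, the liver X receptor alpha, had -0.25 for genistein against control (adjusted p = 0.337), and Pdzk1, an adaptor of Scarb1, had 0.43 for genistein against daidzein (adjusted p = 0.215).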

How the data were processed

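Liver total RNA was labelled with biotin by the Affymetrix 1-cycle protocol, per the labels. The table used holds the values the authors deposited for 15 arrays. What the authors deposited is a score, that is a log signal standardized within each array, where the design had assumed log2 values. The unit was worked out from values that recur in an array: once exponentiated with that array's scale, all 375 of 375 gaps tested came out as whole intensity steps (tolerance 0.001). Background correction, probe summary and standardization are not given in the sources used here. This scale averaged 2.60 log2 units per deposited unit, from 2.54 to 2.79 (control 1), and the common factor was applied, so all log2 changes rest on this inference.

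Arrays were quantile normalized with limma 3.58.1 in R 4.3.3. Leaving out 57 control probe sets and those under the 40th percentile of mean level (-0.30) left 18625, with no missing value. The 3 diets were modelled together in 15 arrays by lmFit with eBayes (12 residual and 2.58 prior degrees of freedom), and p-values were adjusted by Benjamini-Hochberg in each comparison at a threshold of 0.05. This limma fit gives every adjusted p, SE and confidence interval; exact permutation tests were two-sided, over all arrangements of 5 against 5, and unadjusted, and 63 were run on members. A single symbol was annotated for 20826 probe sets, several for 436 and no symbol for 9780, and 10745 genes were represented by their probe set of highest mean.

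Every member probe set is reported. The likeness rule named the 5 genes of highest Pearson r with the Sorl1 probe set of highest mean. Genes of low p are named per list, up to 4 per comparison, for the comparisons with genistein. For the assembly list they are named for genistein against daidzein only. In daidzein against control only Angptl8 is named. Sort1 and Apob were named as well, after their values were seen, as were the genes most like single Sorl1 and Abca1 probe sets. Members, lists and tests were chosen with earlier results of these data known. Same-numbered arrays did not deviate together (1 of 15 pairs with r above 0.1, range -0.16 to 0.11), so the title numbers were not taken as pairs. Promoters came from RefSeq (GRCr8). The array annotation gives no coordinates of the probes. The steps were tested on simulated data. Alternatives were other normalizations, scales, filters, spread estimates and tests, a fit of each pair of diets alone, the replicate block, and leaving out each array.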

Additional observations from a re-analysis of the deposited data

Results flagged for a closer look

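Each probe set was checked in each diet for 1 array apart from the other 4 by Dixon's criterion (gap over range above 0.71 for 5 arrays). Over 63 groups this marked 7, and chance marks about 1 in 20 groups.

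Abca1 had daidzein 2 at 1.89 on 1382431_at, with the other daidzein arrays from 3.40 to 3.57, and the same array at 0.86 on 1394490_at, with the others from 1.63 to 1.79. Sorl1 1377457_a_at had control 5 at 0.99, with the other controls from 1.47 to 1.54, and Scarb1 1367855_at had the same array at 2.58, with the others from 2.79 to 2.83. Lrp1 1396767_at had genistein 4 at 0.83, with the others from 0.08 to 0.16. Mttp had daidzein 4 at 5.15, with the others from 4.93 to 4.99. Lpl had daidzein 5 at 1.53, with the others from 0.74 to 0.94.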

How the results depend on the processing

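The called fall of Sorl1 1393933_at with genistein kept its direction in every alternative that tested it, from -1.17 to -0.74. It lost its call where the 10 arrays of both diets were fitted alone, with 0 calls left among members and 0 over all probe sets. At the 60th percentile filter it was not tested, since its mean lay below, and 0 probe sets then had separate genistein and control arrays. With 16 added to the intensities, with a trended and robust spread, and with array weights, 2 members were called in genistein against control. Leaving out 1 array gave 1 to 4, the highest without genistein 4, and 1 to 6 with separate arrays (1 with all arrays), with 6 without genistein 4, 3 without control 5 and 2 without control 2. Over all probe sets, calls in genistein against control also moved, from 60 in the main fit to 82, 110 and 140 in those 3 alternatives. With 1 array left out they ran from 10 (without control 1) to 203 (without genistein 4). Members with separate arrays numbered 2 by median centring and 3 with a scale per array, where 4 members rather than 7 had an unadjusted p under 0.05. In daidzein against control, that number was 2 by exact tests and in the 10 arrays alone, 0 without quantile normalization, by median centring and with a scale per array, and 0 to 2 without 1 array, where separate arrays numbered 0 to 1. In genistein against daidzein, 1 member was called with 16 added, with array weights and without genistein 4 (0 to 1 without 1 array). Over all probe sets, calls in that comparison numbered 21 in the main fit, 36 with 16 added, 74 with array weights and 136 without genistein 4. Members with an unadjusted p under 0.05 there numbered 3 to 8 without 1 array, 3 without genistein 5. Separate arrays numbered 0 without quantile normalization, 1 by median centring, 1 with a scale per array and 3 to 7 without 1 array (7 without genistein 4). Shares over all probe sets for separate arrays and for unadjusted p-values under the alternatives are not given here. The cause of these moves was not tested. With the replicate block, 1 member was called in genistein against control (Sorl1 1393933_at, adjusted p = 0.0392) and 0 in the other comparisons, and no call changed. Of 1344 values of single probe sets in alternative fits, 1 lost its call (Sorl1 1393933_at, above) and 10 gained one. By exact tests, 3 of 54 unadjusted p-values moved above 0.05 and 2 below it. Under the alternatives, 47 uncalled values of at most 0.12 changed sign. Dim probe sets depend most on where the zero of intensity lies: with 16 added, the Sorl1 1393933_at change was -0.74.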

Other observations

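The genes most like Mttp 1395041_at over the 15 arrays, looked up after its values were seen, were Serpinb9b, a serine protease inhibitor (Pearson r = 0.939, and 0.904 within diets), and Atp8b1, a phospholipid flippase of the canalicular membrane (r = 0.897). Serpinb9b averaged 3.18 ± 2.14 with genistein, 0.13 ± 1.26 with daidzein and 0.81 ± 1.59 with control (SD, n = 5), and had no called change. The most opposite was Agmo, which cleaves ether lipids (r = -0.901), at 5.52 ± 0.28 with genistein, 5.87 ± 0.14 with daidzein and 5.81 ± 0.16 with control.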
